A study of Arabidopsis thaliana with 9 samples.

Results

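Seedlings of the Arabidopsis thaliana mutant se-1 were compared with seedlings of the wild-type accession Col-0 by sequencing of bead-captured mRNA. Both genotypes were sampled as untreated whole seedlings at 2 weeks of age, grown in long days, and each was represented by 3 of the 9 libraries of the series. The labels name the genotype se-1 but give neither its lesion nor its parental accession. As background, se-1 is known as a viable allele with partial loss of function of SERRATE (SE), whose null alleles die as embryos. All genes with a mean of at least 1 FPKM over the 6 libraries were compared, 19059 of the 32823 genes listed. FPKM is a level per length of transcript and size of library; how the authors set that size is not given in the sources used here. Differences are se-1 minus Col-0 on the log2(FPKM + 1) scale ± SE with 3 libraries per genotype, which understates changes of low genes. A gene was called when limma's adjusted p was under 0.05. Nothing in the labels ties the 3 libraries of a genotype to separately grown plants, and p-values therefore measure only the spread between these libraries, which may be technical.

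SE is a zinc-finger protein that works beside the Dicer enzyme DCL1 and the double-stranded RNA binding protein HYL1 when microRNA (miRNA) precursors are cut in the nucleus. Mature miRNAs load into ARGONAUTE proteins and direct cleavage or repression of mRNAs that pair with them, and plant targets are often transcription factors of growth and phase change. Some miRNAs cut non-coding TAS transcripts, which are then turned into trans-acting siRNAs (tasiRNAs) against a further set of mRNAs. SE is also known for roles in splicing, and se mutants for serrated leaves.

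Of the 19059 genes tested, 9070 were called (47.6%), 4575 of them higher in se-1 (24.0%) and 4495 lower (23.6%). The quartiles of the log2 difference over all genes were -0.20 and 0.21 and its median was 0.01, so most calls were small. A log2 difference of 1 or more in size was reached by 696 called genes (3.65% of those tested), of which 404 were higher (2.12%) and 292 lower (1.53%). Groups did not overlap for 10835 genes (56.8%), with se-1 above Col-0 in 5477 and below it in 5358. When libraries were instead scaled to the same sum over nuclear genes, the median of all genes moved to 0.11, with 6642 genes higher and 2848 lower, so that 70.0% of calls were higher in place of 50.4%. That sum includes very short RNA genes with large FPKM. U6-1 (101 bases) had 8923 to 33174 FPKM in se-1 and 27368 to 46755 in Col-0. The tRNA gene AT1G18430 (72 bases) had 29660 FPKM in Col-0 replicate 1 and 0 in every other library. Protein-coding genes summed to 785600 to 826400 FPKM in se-1 and 835600 to 857300 in Col-0. The part of the short RNA genes in the shift was not tested. Counts for gene groups below are to be read against the main shares of all genes, 24.0% higher and 23.6% lower.

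Libraries of one genotype correlated across genes at r of 0.982 to 0.989, and libraries of different genotypes at 0.956 to 0.962. The FPKM sum of a library lay between 825991 and 853627 in se-1 and between 881065 and 937136 in Col-0, and 22382 to 22952 genes had a value above 0. Chloroplast genes took 1.87%, 0.0551% and 1.04% of the FPKM sum in the 3 se-1 libraries, against 0.0496%, 1.96% and 0.0360% in the Col-0 libraries. Libraries also differed in the balance of short and long transcripts. The median log2 deviation of 2578 protein-coding genes of up to 1000 bases minus that of 2104 genes over 3000 bases was -0.09, 0.11 and 0.26 in se-1, against -0.05, -0.14 and -0.11 in Col-0. Of the short genes, 795 were called higher and 446 lower. Of the long genes, 238 were called higher and 612 lower. After a length trend was removed from each library, a step chosen after seeing the data, the long class held 457 higher and 459 lower calls. The part of transcript length in single results was not tested beyond that fit. Whole-seedling RNA pools all organs, so fewer cells of a type and less RNA per cell cannot be told apart.

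**Figure D1:**
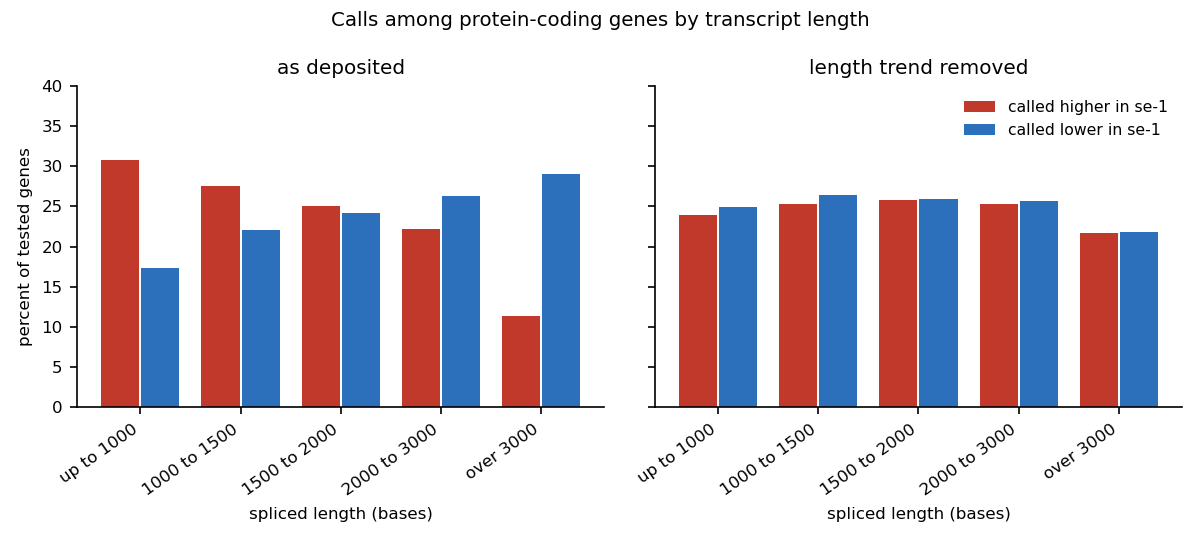
Percent of tested protein-coding genes called higher (red) and lower (blue) in se-1, by spliced length of the transcript in bases, with the deposited values (left) and after a length trend was removed from each library (right). With the deposited values, 30.8% of genes up to 1000 bases were called higher and 11.3% of genes over 3000 bases.

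SE itself remained at a level near that of Col-0. The gene (AT2G27100) had 28.97, 27.2 and 25.5 FPKM in se-1, against 30.7, 33.2 and 31.1 FPKM in Col-0, a difference of -0.21 ± 0.06 (limma adjusted p = 0.0153). All 3 se-1 libraries lay below all 3 Col-0 libraries, by a small margin. The call was lost without Col-0 replicate 2, where the log2 difference of SE was -0.18 (limma adjusted p = 0.0619), and with equal nuclear sums, where the log2 difference of SE was -0.10 (limma adjusted p = 0.245). An mRNA level near that of the wild type neither checks nor contradicts the label, since the labels do not say which part of the gene is altered. CYP71 (AT3G44600), the cyclophilin named in the title of the series, had 17.9, 17.1 and 18.3 FPKM in se-1, against 16.9, 17.57 and 19.1 FPKM in Col-0, and the groups overlapped.

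The miRNA target genes are described first, with the sites through which they are known to be regulated. The pairs below each show 1 called target of a different family and were chosen after the values were seen, so as to hold targets that were higher and targets that were lower in se-1. Each miRNA is printed 5′ to 3′ with its seed (bases 2 to 8) in capitals, and each target site 5′ to 3′ on the sense strand with the bases facing the seed in capitals. All were read from the RefSeq copy of the TAIR10.1 genome, by an ungapped search of annotated transcripts for the best complement to an annotated mature miRNA. A match describes sequence only.
miR156a-5p: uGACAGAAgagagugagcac
SPL9 site: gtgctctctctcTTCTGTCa
miR164a: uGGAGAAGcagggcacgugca
CUC1 site: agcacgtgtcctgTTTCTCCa
miR169h: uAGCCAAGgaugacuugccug
NF-YA2 site: caggcaaatcatcTTTGGCTc
miR403-3p: uUAGAUUCacgcacaaacucg
AGO2 site: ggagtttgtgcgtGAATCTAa
miR827: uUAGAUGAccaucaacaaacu
NLA site: tgtttgttgatggTCATCTAa
miR172e-3p: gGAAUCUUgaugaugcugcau
SMZ site: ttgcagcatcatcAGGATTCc
miR171a-3p: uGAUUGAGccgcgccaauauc
HAM3 site: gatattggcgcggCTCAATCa
miR319c: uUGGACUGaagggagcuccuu
TCP10 site: aaggggtacccttCAGTCCAg

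The SPL9 site lies in the coding sequence at chr2:17589066-17589085 on the plus strand. The same 20 letters were found in SPL2, SPL10, SPL11, SPL13A, SPL13B, SPL15 and AT1G69170. The CUC1 site is coding (chr3:5111137-5111157, plus strand) and identical in CUC2. The NF-YA2 site is in the 3′ UTR (chr3:1676807-1676827, minus strand), as is that of AGO2 (chr1:11185223-11185243, plus strand), and the NLA site is in the 5′ UTR (chr1:635401-635421, plus strand). The SMZ site (chr3:20373774-20373794, minus strand), the HAM3 site (chr4:58411-58431, minus strand) and the TCP10 site (chr2:13221210-13221230, minus strand) are coding. HAM1, HAM2 and HAM3 carry the same fully complementary letters, so the site does not separate members that differed in their response.

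Of 101 listed targets of 28 miRNA families, 85 passed the filter on low values. In se-1, 45 of them were called higher (52.9%, against 24.0% of all genes) and 12 lower (14.1%, against 23.6%). The median log2 difference was 0.31, against 0.01 over all genes. Leaving out any 1 library gave 41 to 45 higher and 9 to 11 lower, and removal of the length trend gave 50 higher and 11 lower. The 16 targets below the filter include SPL13A and SPL13B, near-identical copies that the files list at 0 in every library. The direction differed between families, and often within one.

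**Figure D2:**
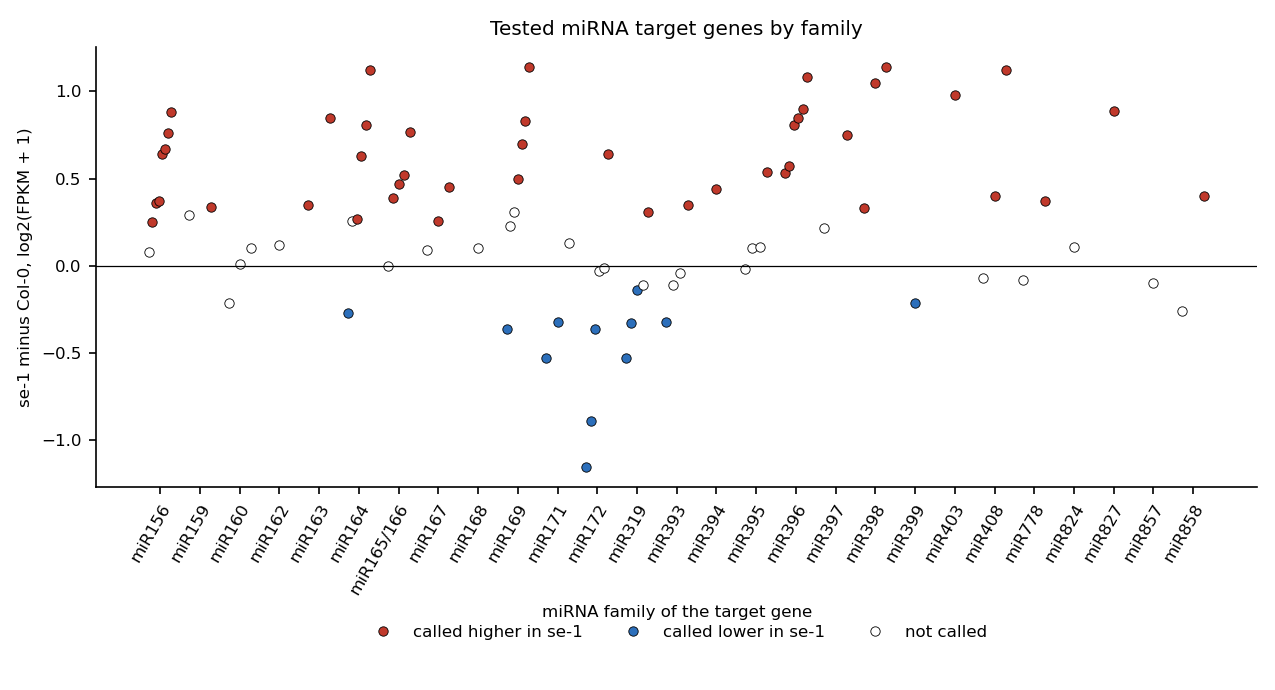
Log2 difference (se-1 minus Col-0, log2(FPKM + 1)) of tested miRNA target genes, 1 left out, grouped along the horizontal axis by miRNA family. Red points were called higher in se-1, blue points lower, and white points were not called. All points of miR396 and miR398 lie above 0, and those of miR171, miR172 and miR319 lie on both sides of it.

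The miR398 family targets copper proteins and held 3 members, all called higher, with a median of 1.05. CSD1, the cytosolic copper/zinc superoxide dismutase, had 115, 116 and 122.81 FPKM in se-1, against 54.2, 47.7 and 57.7 FPKM in Col-0, a difference of 1.14 ± 0.07 (limma adjusted p = 1.95e-06). CSD2, its chloroplast counterpart, had 119.7, 124 and 120.2 FPKM in se-1, against 57.2, 58.1 and 58.8 FPKM in Col-0 and differed by 1.05 ± 0.04 (limma adjusted p = 1.22e-07). Both enzymes stood far above the Col-0 range in every se-1 library. CCS, the chaperone that loads copper into them, had 30.3, 28.5 and 32.7 FPKM in se-1, against 22.1, 26.04 and 23.9 FPKM in Col-0 (0.33 ± 0.07, limma adjusted p = 0.00424). The blue copper protein gene ARPN (plantacyanin), a target of miR408, had 9.29, 10.2 and 11.2 FPKM in se-1, against 4.74, 4.09 and 3.72 FPKM in Col-0, a difference of 1.12 ± 0.10 (limma adjusted p = 2.15e-05). The laccase gene LAC3 of the same family differed by 0.40 ± 0.07 and LAC17, a laccase of the miR397 family that acts in lignification, by 0.75 ± 0.06. Groups did not overlap for any of these 3 genes. LAC13, a further miR408 target, and IRX12 (LAC4), a miR397 target, were not called, at -0.07 and 0.22.

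The growth-regulating factors (GRFs), transcription factors of leaf cell proliferation, are targets of miR396. All 6 tested members were called higher, with a median of 0.83. GRF1 had 12.2, 13.1 and 13.8 FPKM in se-1, against 4.81, 6.11 and 6 FPKM in Col-0, a difference of 1.08 ± 0.09 (limma adjusted p = 1.89e-05). GRF8, GRF9 and GRF2 differed by 0.90, 0.85 and 0.81, and GRF3 and GRF4 by 0.57 and 0.53. In none of the 6 did a se-1 library reach down into the Col-0 range. GRF7 was below the filter.

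SPL genes, the miR156 targets, encode factors that promote the change from juvenile to adult growth. Of 8 tested, 7 were called higher and none lower, with a median of 0.50. SPL9 had 10.8, 10.6 and 10.2 FPKM in se-1, against 4.73, 5.69 and 5.46 FPKM in Col-0, a difference of 0.88 ± 0.08 (limma adjusted p = 2.6e-05). SPL3, which carries its site in the 3′ UTR, had 8.47, 8.07 and 8.71 FPKM in se-1, against 4.23, 4.55 and 4.92 FPKM in Col-0 and differed by 0.76 ± 0.08 (limma adjusted p = 5.72e-05). Every se-1 library exceeded every Col-0 library for both genes. SPL15 and SPL11 differed by 0.67 and 0.64, and SPL2 and SPL10 by 0.37 and 0.36. SPL4 was not called (0.08), with overlapping groups. The call of AT1G69170 (0.25) was lost under several settings, among them leaving out Col-0 replicate 2.

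NF-YA genes, which encode the DNA-binding subunit of the CCAAT-box factor, are targets of miR169. Of 7 tested members, 4 were called higher and 1 lower. NF-YA2 had 17.1, 16.3 and 18.5 FPKM in se-1, against 7.73, 6.83 and 7.35 FPKM in Col-0, a difference of 1.14 ± 0.07 (limma adjusted p = 3e-06). Increases of 0.83, 0.70 and 0.50 were found for NF-YA3, NF-YA8 and NF-YA9. NF-YA1 went the other way, with 18.7, 21.9 and 18.8 FPKM in se-1, against 25.1, 26.9 and 25.1 FPKM in Col-0 (-0.36 ± 0.07, limma adjusted p = 0.00233). NF-YA5 and NF-YA10 were not called, although the NF-YA10 site has the same letters as that of NF-YA2.

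Organ-boundary and polarity factors formed a further group. CUC1, a NAC factor that separates neighbouring organs and a miR164 target, was low but clearly different, with 1.76, 1.79 and 2.25 FPKM in se-1, against 0.38, 0.36 and 0.3 FPKM in Col-0 (1.12 ± 0.13, limma adjusted p = 0.000129). Its partner CUC2 differed by 0.81 ± 0.13 and NAC1, a factor of lateral root growth, by 0.63 ± 0.06. NAC6 (ORE1), a promoter of leaf senescence, differed by 0.27 ± 0.06, and NAC100 was not called. NAC080 differed by -0.27, a call lost when any 1 library was left out. Among the class III homeodomain-leucine zipper genes, which set the upper side of leaves and are targets of miR165 and miR166, 4 of 5 were called higher. ATHB-15 had 33.5, 29.8 and 27.8 FPKM in se-1, against 16.2, 18.1 and 17.7 FPKM in Col-0, a difference of 0.77 ± 0.07 (limma adjusted p = 3.8e-05). PHV, PHB and HB-8 differed by 0.52, 0.47 and 0.39. REV did not follow them, with 19.5, 17.41 and 18.6 FPKM in se-1, against 17.45, 19.1 and 18.9 FPKM in Col-0, overlapping groups and a difference of 0.00.

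Single targets of other families also differed. AGO2, an ARGONAUTE of antiviral defence and a miR403 target, had 23.1, 19.8 and 18.1 FPKM in se-1, against 9.32, 9.43 and 10.5 FPKM in Col-0, a difference of 0.98 ± 0.09 (limma adjusted p = 2.67e-05). NLA, a ubiquitin ligase that limits phosphate and nitrate uptake and a miR827 target, had 14.1, 12.6 and 11.8 FPKM in se-1, against 6.32, 7.13 and 6 FPKM in Col-0 and differed by 0.89 ± 0.09 (limma adjusted p = 4.02e-05). The groups stood well apart for both. LCR, the F-box target of miR394 in the shoot tip, differed by 0.44 ± 0.05, and the auxin response factor ARF8, a miR167 target, by 0.45 ± 0.06. The methyltransferase PXMT1, a miR163 target, differed by 0.85 ± 0.15, MYB33 of the miR159 family by 0.34 ± 0.06, and MYB111, a flavonol regulator of the miR858 family, by 0.40 ± 0.10. APS3, an ATP sulfurylase and miR395 target, differed by 0.54 ± 0.07, but APS1, APS4 and SULTR2;1 of the same family were not called. Calls for ARF6, FAMT and SUVH5 (0.26, 0.35 and 0.37) were lost when single libraries were left out.

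**Figure D3:**
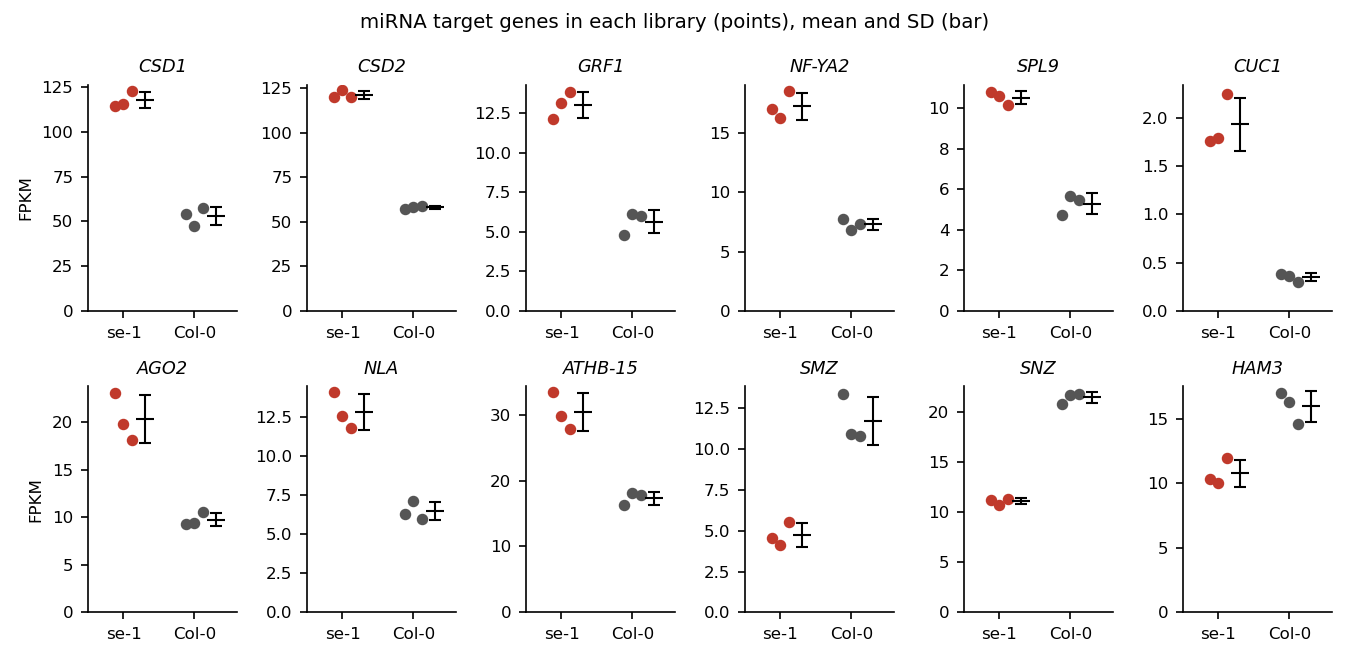
FPKM of 12 miRNA target genes in each se-1 (red) and Col-0 (grey) library, with the mean and SD of 3 libraries beside the points; every axis is linear and starts at 0. The 3 se-1 points lie above all Col-0 points in CSD1, CSD2, GRF1, NF-YA2, SPL9, CUC1, AGO2, NLA and ATHB-15, and below them in SMZ, SNZ and HAM3.

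Other families moved the opposite way. SMZ, an AP2-type repressor of flowering and a miR172 target, had 4.55, 4.11 and 5.51 FPKM in se-1, against 13.4, 10.9 and 10.8 FPKM in Col-0, a difference of -1.15 ± 0.11 (limma adjusted p = 4.11e-05). Its paralog SNZ had 11.2, 10.8 and 11.4 FPKM in se-1, against 20.8, 21.8 and 21.9 FPKM in Col-0 (-0.89 ± 0.05, limma adjusted p = 2.36e-06), and RAP2.7 (TOE1) differed by -0.36 ± 0.04. TOE3 of the same family was higher by 0.64 ± 0.07, while AP2 and TOE2 were not called. HAM3, a GRAS factor that maintains meristems and a miR171 target, had 10.3, 10.03 and 11.99 FPKM in se-1, against 16.97, 16.3 and 14.6 FPKM in Col-0 (-0.53 ± 0.08, limma adjusted p = 0.000713). HAM1 had 19.4, 20.1 and 20.1 FPKM in se-1, against 25.4, 24.4 and 25.1 FPKM in Col-0 (-0.32 ± 0.05), whereas HAM2 was not called, with a difference of 0.13 and overlapping groups. TCP10, a leaf maturation factor of the miR319 family, had 24.6, 25.3 and 23.6 FPKM in se-1, against 35.1, 36.8 and 35.8 FPKM in Col-0 (-0.53 ± 0.05, limma adjusted p = 2.35e-05). TCP2 differed by -0.33 and TCP24 by 0.31 in the opposite sense, TCP3 was not called, and TCP4 (-0.14) lost its call under some settings. The auxin receptor genes of the miR393 family split as well, with AFB3 at -0.32, GRH1 (AFB1) at 0.35, and TIR1 and AFB2 not called. PHO2 of the miR399 family (-0.21) had overlapping groups and lost its call when any of 5 of the 6 libraries was left out.

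Several classic targets showed no call. They include ARF10, ARF16 and ARF17 of the miR160 family, AGL16 of the miR824 family and LAC7 of the miR857 family. Among the miRNA pathway's own targets, AGO1 (miR168) had 80.9, 73.5 and 67.5 FPKM in se-1, against 68.5, 68.2 and 69.01 FPKM in Col-0, and the groups overlapped. DCL1 (miR162) had 15.8, 12.8 and 9.89 FPKM in se-1, against 11.5, 11.6 and 11.6 FPKM in Col-0, with the se-1 libraries spread on both sides of Col-0. The log2 difference of DCL1 was 0.12 and not called, but 0.28 without se-1 replicate 3 (limma adjusted p = 0.0432) and 0.34 with the length trend removed (limma adjusted p = 0.00267), both called.

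The TAS transcripts and the mRNAs their tasiRNAs target were split in direction. TAS3, whose tasiRNAs act on ARF genes, had 165.24, 165.97 and 184 FPKM in se-1, against 90.12, 92.3 and 94.5 FPKM in Col-0, a difference of 0.89 ± 0.05 (limma adjusted p = 1.51e-06). TAS1C had 36.8, 39.8 and 39.99 FPKM in se-1, against 20.5, 19.3 and 20.7 FPKM in Col-0 (0.91 ± 0.05, limma adjusted p = 1.92e-06). TAS2, in contrast, had 25.5, 26.3 and 26.9 FPKM in se-1, against 39.4, 39.3 and 38.05 FPKM in Col-0 (-0.55 ± 0.04, limma adjusted p = 1.39e-05), TAS1B differed by -0.37 ± 0.09, and TAS1A was not called. TAS1 and TAS2 transcripts resemble each other, so the division of fragments among them is uncertain. Of the ARF targets of TAS3, ETT (ARF3) had 19.3, 19.7 and 18.24 FPKM in se-1, against 12.1, 12.2 and 12.3 FPKM in Col-0 (0.60 ± 0.05) and ARF4 differed by 0.34 ± 0.07. ARF2 was lower in se-1, with 67.8, 59.3 and 53.4 FPKM in se-1, against 85.3, 86.2 and 86.6 FPKM in Col-0 (-0.52 ± 0.07, limma adjusted p = 0.000455). The uncharacterised TAS1 target AT5G18040 had 32.7, 33.4 and 30.2 FPKM in se-1, against 17.8, 16.9 and 16.5 FPKM in Col-0 (0.87 ± 0.06), and its neighbour AT5G18065 differed by 0.48 ± 0.09.

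Annotated miRNA genes are short, and in libraries of captured and fragmented mRNA their values may rest on few fragments. Of 323 listed, 43 passed the filter, with 10 called higher and 3 lower, but leaving out any 1 library left 4 to 7 higher and 1 to 3 lower, and removal of the length trend left 3 and 3. Those that kept their call under every setting are given with their mature sequences, for comparison with the target families above.
miR157c-5p: uUGACAGAagauagagagcac
miR408-3p: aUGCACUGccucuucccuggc
miR824-5p: uAGACCAUuugugagaaggga
miR163: uUGAAGAGgacuuggaacuucgau

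MIR157c had 146, 139 and 96.2 FPKM in se-1, against 0 FPKM in all 3 Col-0 libraries. The gene is listed at 0 in every Col-0 library, so no fold is given, and its 217-base transcript makes even a small number of fragments a large FPKM. In se-1 replicate 2 its value was 21.0 times the lowest value above 0 of any gene of that length. MIR824 had 13.6, 12.4 and 11.6 FPKM in se-1, against 4.51, 3.23 and 4.35 FPKM in Col-0, a difference of 1.44 ± 0.11 (limma adjusted p = 1.01e-05), with no overlap. MIR408 had 20.2, 32.2 and 27.98 FPKM in se-1, against 0, 0 and 14.3 FPKM in Col-0 (3.46 ± 0.89, limma adjusted p = 0.0109), and 2 of its Col-0 libraries were at 0. Wherever MIR408 (218 bases) was above 0, no listed gene of its length had a lower value above 0. Its values may rest on few fragments. MIR163 was the clear case in the other direction, with 2.98, 2.5 and 7.24 FPKM in se-1, against 23.55, 32.9 and 27.4 FPKM in Col-0 (-2.56 ± 0.28, limma adjusted p = 7.98e-05). MIR2936 had 793, 1299.6 and 953 FPKM in se-1, against 34.7, 449 and 334 FPKM in Col-0 (2.51 ± 0.78, limma adjusted p = 0.0267), and its call was lost without any 1 of the se-1 libraries. For MIR2936 (180 bases) too, no listed gene of its length had a lower value above 0 in any library. The miR824 target AGL16 was not called and the miR163 target PXMT1 was higher.

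2 genes for the spliceosomal U4 RNA headed the list of differences, with U4.8 at 546, 482 and 367 FPKM in se-1, against 0 FPKM in all 3 Col-0 libraries and U4.5 at 302, 263 and 202 FPKM in se-1, against 0 FPKM in all 3 Col-0 libraries. These values may stand for as little as 1 fragment per library. In se-1 replicate 2 the snoRNA gene AT2G04955, of the same length as U4.8 (149 bases), has the identical 482.29 FPKM, and the ratio of U4.8 to U4.5 was 1.81, 1.83 and 1.82 in the 3 se-1 libraries. U12, the RNA of the minor spliceosome, had 43.3, 114 and 87 FPKM in se-1, against 0, 41.1 and 0 FPKM in Col-0 (4.46 ± 1.23, limma adjusted p = 0.0155), with 2 Col-0 libraries at 0. The call of U12 was lost without se-1 replicate 2 or 3 or Col-0 replicate 1 or 3. U6-1, the small nuclear RNA with the highest FPKM, had 33174, 8923 and 11638 FPKM in se-1, against 43591, 46755 and 27368 FPKM in Col-0, and its groups overlapped. U12 (175 bases) and U6-1 (101 bases) may also rest on few fragments. Wherever they were above 0, no listed gene of the same length had a lower value above 0. FPKM at such lengths is not a measure of abundance.

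Of 25 factors of miRNA processing around SE, 3 were called higher (12.0%) and 4 lower (16.0%), both below the shares of all genes, 24.0% and 23.6%. With equal nuclear sums, 5 were higher and 1 lower, and 5 were higher without se-1 replicate 3. VIP2 (NOT2b), a CCR4-NOT-related protein that aids miRNA gene transcription and dicing, stood out with 53.2, 49.2 and 53.01 FPKM in se-1, against 23.9, 26.7 and 24.5 FPKM in Col-0, a difference of 1.02 ± 0.06 (limma adjusted p = 1.43e-06). CPL1, the phosphatase that keeps HYL1 active, differed by 0.33 ± 0.07, and the splicing factor EMB2770 (STA1) by -0.40 ± 0.09. HYL1, the cap-binding genes CBP20 and ABH1, the methyltransferase HEN1 and the exportin HST, named here after their values were seen, were not called. Among 19 tested siRNA and DNA methylation factors, 5 were higher (26.3%) and 1 lower (5.26%). There were 2 higher without se-1 replicate 1 or Col-0 replicate 1, and 3 without se-1 replicate 2 or Col-0 replicate 3. The chromatin remodeller CHR1 (DDM1) differed by 0.51 ± 0.07 and AGO7, the ARGONAUTE that starts TAS3 processing, by -0.47 ± 0.11.

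RNA decay factors included 1 higher and 6 lower of 19, and 3 higher and 2 lower with equal nuclear sums. The nonsense-mediated decay helicase LBA1 (UPF1) differed by -0.36 ± 0.06 and the ribonuclease EMB2763 by -0.35 ± 0.06. Without se-1 replicate 1, 10 decay factors were lower. Splicing regulators included 2 higher and 7 lower of 23, a split that turned to 7 and 1 with equal nuclear sums and to 3 lower without Col-0 replicate 1 or replicate 3. The RNA-binding protein GRP7, which takes part in splicing and the clock, had 187, 190.5 and 198 FPKM in se-1, against 115, 115 and 108 FPKM in Col-0 (0.76 ± 0.04, limma adjusted p = 1.32e-06). SCL28 differed by 0.90 ± 0.15 and SC35 by -0.27 ± 0.04.

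Meristem and leaf patterning genes changed in both directions. Of 14 tested meristem and boundary genes, 6 were called higher and 3 lower. KNAT2, a KNOX homeobox gene kept off in leaves by AS1, had 4.04, 3.98 and 4.17 FPKM in se-1, against 0.72, 0.72 and 0.81 FPKM in Col-0, a difference of 1.53 ± 0.10 (limma adjusted p = 3.96e-06). AIL6, an AP2-type factor of meristem growth, differed by 0.73 ± 0.08. AS1 itself had 29.02, 29.7 and 28.1 FPKM in se-1, against 40.6, 35.6 and 40.2 FPKM in Col-0 (-0.41 ± 0.06, limma adjusted p = 0.000449), and the meristem receptor CLV1 differed by -0.47 ± 0.07. None of the 4 genes had overlapping groups. Of 7 leaf polarity genes, 2 were higher (28.6%) and 2 lower (28.6%), near the shares of all genes, 24.0% and 23.6%. KAN3 and KAN2, which specify the lower side, differed by -1.15 ± 0.10 and -0.54 ± 0.11, while the YABBY genes YAB2 and AFO (FIL) differed by 0.58 ± 0.05 and 0.29 ± 0.06.

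Of 13 tested flowering regulators, 5 were called higher and 5 lower. FLC, the main repressor of the vernalization pathway, had 0.35, 0.26 and 0.11 FPKM in se-1, against 3.66, 2.32 and 2.45 FPKM in Col-0, a difference of -1.61 ± 0.16 (limma adjusted p = 5.56e-05). It was low in all libraries, and below 1 FPKM in every se-1 library. Since the parental accession of se-1 is not given, the se lesion and any difference in background cannot be told apart for FLC, or for any other gene. AGL24, a MADS-box promoter of flowering, had 4.77, 5.99 and 6.09 FPKM in se-1, against 17.8, 15.8 and 18.8 FPKM in Col-0 (-1.48 ± 0.10, limma adjusted p = 3.94e-06), with no overlap. The FLC relative MAF5 differed by 0.92 ± 0.16 and AGL42 by 0.62 ± 0.08.

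Defence genes of the salicylate pathway were lower in se-1. Of 24 tested members of this list, 20 were called lower and 1 higher, with a median log2 difference of -0.67. PR1, the standard marker of salicylate signalling, had 1.3, 1.46 and 1.09 FPKM in se-1, against 49.1, 48.5 and 49.3 FPKM in Col-0, a difference of -4.46 ± 0.07 (limma adjusted p = 3.36e-09), the largest fall among genes with a symbol and groups that did not overlap. PBS3, an enzyme of salicylate synthesis, had 0.76, 0.54 and 0.7 FPKM in se-1, against 6.26, 6.86 and 6.6 FPKM in Col-0 (-2.19 ± 0.10), and LURP1, a gene induced by the oomycete pathogen Hyaloperonospora, had 2.1, 2.6 and 1.93 FPKM in se-1, against 14.4, 12.9 and 13.4 FPKM in Col-0 (-2.19 ± 0.10). AIG1, induced by avirulent bacteria, differed by -2.54 ± 0.08. All 4 genes had narrow replicate ranges and no overlap. PR5 was the exception, with 16.1, 19.97 and 19.04 FPKM in se-1, against 12.9, 12.1 and 12.3 FPKM in Col-0 (0.52 ± 0.08, limma adjusted p = 0.000671).

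Other immune groups were less uniform. SAG13, a gene of senescence and cell death, had 1.1, 1.13 and 1.88 FPKM in se-1, against 33.6, 34 and 30.9 FPKM in Col-0 (-3.85 ± 0.12, limma adjusted p = 7.74e-08), and the chitinase gene CHI had 2.78, 3.81 and 3.45 FPKM in se-1, against 19.6, 19.8 and 17.2 FPKM in Col-0 (-2.20 ± 0.10). PCC1, a small gene under pathogen and clock control, differed by -2.40 ± 0.11. Among 12 genes of pattern-triggered immunity, 3 were higher and 5 lower. The camalexin enzymes CYP71A13 and PAD3 differed by -1.50 ± 0.15 and -1.18 ± 0.10, but WRKY22 had 9.72, 11.3 and 11.3 FPKM in se-1, against 4.13, 5.39 and 4.36 FPKM in Col-0 (1.07 ± 0.10) and CYP81F2, an indole glucosinolate hydroxylase, differed by 0.75 ± 0.12. Of 85 tested NBS-LRR resistance genes, 35 were lower and 7 higher, and 28 lower and 15 higher once the length trend was removed. Leaving out 1 library left 25 to 41 lower, with 3 higher without Col-0 replicate 3 and 4 higher without se-1 replicate 1, Col-0 replicate 1 or Col-0 replicate 2. AT5G46490 of the TIR class had 6.57, 6.15 and 5.58 FPKM in se-1, against 18.1, 18.7 and 18.5 FPKM in Col-0 (-1.46 ± 0.07) and AT1G12290 of the CC class differed by 0.56 ± 0.12. WRKY factors were divided, with 15 higher (30.6%) and 12 lower (24.5%) of 49, WRKY46 among the lower at -1.17 ± 0.10. With any 1 library left out, 10 to 14 WRKY factors were higher and 10 to 11 lower.

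Jasmonate and ethylene genes moved in both directions. Of 27 jasmonate genes, 11 were higher and 9 lower. AOC2, an enzyme of jasmonate synthesis, had 61.5, 59.3 and 67.5 FPKM in se-1, against 16.8, 16.7 and 16.1 FPKM in Col-0 (1.86 ± 0.06, limma adjusted p = 6.08e-08), and the basic chitinase HCHIB differed by 1.40 ± 0.08. The defensins, which need both hormones, were lower. PDF1.2 had 6.13, 7.28 and 7.67 FPKM in se-1, against 18.6, 20.3 and 17.2 FPKM in Col-0 (-1.30 ± 0.09) and PDF1.2b had 0.96, 0.76 and 0.13 FPKM in se-1, against 7.7, 10.9 and 11.9 FPKM in Col-0 (-2.80 ± 0.22), but the 2 copies are so alike that their fragments may be misassigned. Among 16 ethylene genes, 5 were higher and 3 lower, and 6 were lower without se-1 replicate 1. The synthesis genes ACS11 and ACO1 differed by 1.61 ± 0.11 and 1.11 ± 0.08.

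Of 13 tested sulfur-starvation genes, 11 were called higher and none lower, with a median of 0.49. LSU1, a marker of low sulfur, had 74.8, 77.2 and 85.6 FPKM in se-1, against 16.3, 18.6 and 19.5 FPKM in Col-0, a difference of 2.07 ± 0.07 (limma adjusted p = 1.41e-07), and ATSDI1, a regulator of glucosinolate use under sulfur limitation, had 63.9, 58.7 and 62.2 FPKM in se-1, against 14, 13.4 and 14.4 FPKM in Col-0 (2.07 ± 0.05). The groups lay far apart for both. Iron genes were called higher in 12 of 23 and lower in 7, with 12 and 4 when nuclear sums were equal. IRT1, the main root iron importer, had 56.3, 54.1 and 57.5 FPKM in se-1, against 12.9, 11.4 and 13.6 FPKM in Col-0 (2.07 ± 0.07, limma adjusted p = 7.87e-08). CYP82C4, which makes iron-mobilising coumarins, had 12.8, 12.8 and 12.9 FPKM in se-1, against 2.52, 2.12 and 2.43 FPKM in Col-0 (2.05 ± 0.08). Their regulator FRU (FIT) was lower, with 6.19, 5.51 and 5.39 FPKM in se-1, against 9.54, 9.8 and 9.22 FPKM in Col-0 (-0.65 ± 0.07, limma adjusted p = 0.000105), and AT2G30766 differed by -0.67 ± 0.04.

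Of 17 nitrogen genes, 10 were higher and 3 lower. ASN1, an asparagine synthase, had 46.4, 49.95 and 46.3 FPKM in se-1, against 25.1, 23.1 and 24.6 FPKM in Col-0 (0.94 ± 0.05) and the nitrate-responsive repressor HRS1 differed by 0.77 ± 0.10. The transporter NRT1.1 and the nitrate sensor NLP7 differed by -0.54 ± 0.04 and -0.45 ± 0.06. Phosphate starvation genes included 5 higher and 3 lower of 13. IPS1, a non-coding mimic that sequesters miR399, had 1.19, 0.7 and 1.55 FPKM in se-1, against 9.77, 6.07 and 6.43 FPKM in Col-0 (-1.97 ± 0.19, limma adjusted p = 4.11e-05), and AT5G03545, also induced by phosphate starvation, differed by -0.71 ± 0.05. The ribonuclease RNS1 and the phosphatase PAP17 of the same list differed by 0.98 ± 0.10 and 0.59 ± 0.05. Copper homeostasis genes other than the miR398 targets were lower in 5 of 10 and higher in none, but 4 and 4 with equal nuclear sums and 5 lower and 3 higher after quantile normalization. COPT1, a copper importer, differed by -0.33 ± 0.06.

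Among proliferation and cell wall genes, calls higher in se-1 outnumbered calls lower in each list. Of 29 cell cycle and replication genes, 15 were called higher and none lower, with a median of 0.28. PCNA1, the replication clamp, had 33.99, 31.9 and 35.4 FPKM in se-1, against 21.6, 18.5 and 20.96 FPKM in Col-0 (0.70 ± 0.07, limma adjusted p = 3.86e-05), and the mitotic cyclin CYCB2;3 had 6.8, 7.52 and 6.76 FPKM in se-1, against 3.19, 3.17 and 3.44 FPKM in Col-0 (0.91 ± 0.08). Core histone genes were higher in 20 of 39 and lower in 3, or 15 and 6 with the length trend removed. The histone gene AT5G10390 differed by 0.77 ± 0.04. NAC044, a factor of the DNA damage response, differed by 1.07 ± 0.16 among 7 such genes with 3 higher and 1 lower.

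Of 24 xyloglucan endotransglucosylase/hydrolase (XTH) genes, whose products remodel growing walls, 18 were higher and 3 lower, with a median of 0.50. XTH9 had 179, 187 and 194 FPKM in se-1, against 46.8, 44.6 and 48.2 FPKM in Col-0, a difference of 1.98 ± 0.05 (limma adjusted p = 2.1e-08). Expansins, which loosen walls, were higher in 13 of 23 and lower in 3. EXPB2 had 3.32, 2.56 and 2.84 FPKM in se-1, against 0.07, 0.08 and 0.07 FPKM in Col-0 (1.86 ± 0.13), while EXPA8 had 14.5, 15.6 and 18.3 FPKM in se-1, against 36.1, 34.8 and 35.6 FPKM in Col-0 (-1.10 ± 0.08). Class III peroxidases were higher in 22 of 50 and lower in 5, with AT1G49570 at 1.94 ± 0.09 and AT2G34060 at -1.44 ± 0.09. In none of the 5 named wall genes did the groups overlap.

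Ribosomal protein genes gave no stable count. Of 312 tested, 79 were higher and 30 lower, but 43 were higher without Col-0 replicate 3, 46 without Col-0 replicate 2, 50 without se-1 replicate 2, 116 without se-1 replicate 1, 60 higher and 55 lower with the length trend removed and 194 higher with equal nuclear sums. Their summed FPKM overlapped between groups, at 68500 to 74960 in se-1 and 68820 to 71860 in Col-0. Pentatricopeptide repeat genes, which edit and process organelle RNAs, were lower in 49 of 186 (26.3%) and higher in 14 (7.53%). The lower share was near that of all genes, 23.6%, and the higher share was below that of all genes, 24.0%. Without Col-0 replicate 2, 32 were lower, and with equal nuclear sums 28 were lower and 20 higher.

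Hormone lists other than those of defence were mixed except for brassinosteroid genes. Of 9 such genes, 6 were lower and none higher, including the synthesis enzymes BR6OX2, with 6.6, 8.29 and 6.34 FPKM in se-1, against 13.3, 14.2 and 13.6 FPKM in Col-0 (-0.87 ± 0.09), and CPD (-0.62 ± 0.06). Auxin genes were higher in 7 of 19 and lower in 5. GH3.3, which conjugates auxin, differed by 0.86 ± 0.10, and TAA1, an enzyme of auxin synthesis, by -0.66 ± 0.09. Of 18 cytokinin genes, 6 were higher and 5 lower, among them the synthesis gene IPT5 (0.83 ± 0.12) and the response regulators ARR3 (0.81 ± 0.10) and ARR15 (-0.98 ± 0.10). Gibberellin genes were higher in 3 of 16 and lower in 4, a split that reversed with equal nuclear sums to 4 and 3. GASA4, a gibberellin-induced gene, had 298, 317 and 346 FPKM in se-1, against 188, 181 and 189 FPKM in Col-0 (0.78 ± 0.05).

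The morning clock gene CCA1 was lower in every se-1 library, with 129.6, 131 and 132 FPKM in se-1, against 273, 268 and 275 FPKM in Col-0 (-1.05 ± 0.03, limma adjusted p = 7.87e-08). Of 16 clock genes, 3 were higher and 9 lower. PRR5 and TOC1, which peak later in the day, differed by 1.02 ± 0.15 and 0.47 ± 0.08, and CDF1 by -0.86 ± 0.07. The labels give no hour of harvest for either genotype, so harvest time and genotype cannot be told apart. Among 10 light signalling genes, 3 were lower and none higher, but 3 were higher and 2 lower with equal nuclear sums. ELIP2, a light-stress protein, had 186, 209 and 212 FPKM in se-1, against 439, 417 and 435 FPKM in Col-0 (-1.09 ± 0.05).

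Of 43 light-harvesting and photosystem genes, 32 were lower and 2 higher, with a median of -0.27, and 17 were lower and 9 higher after quantile normalization. Their summed FPKM was 95730 to 107800 in se-1 and 115600 to 120200 in Col-0. PSAN, a photosystem I subunit, had 1046, 1104 and 1237 FPKM in se-1, against 1762, 1658 and 1753 FPKM in Col-0 (-0.61 ± 0.06), while LHCB4.3 had 122.98, 136 and 138 FPKM in se-1, against 80.97, 85.2 and 82.8 FPKM in Col-0 (0.66 ± 0.05). These genes hold a large part of the library total. The number called moved with the normalization, and was 25 lower and 4 higher with equal nuclear sums. Heat-shock genes were lower in 8 of 11 and higher in 1. The regulator HSFA2 had 7.04, 6.28 and 5.48 FPKM in se-1, against 12.2, 10.4 and 13.8 FPKM in Col-0 (-0.85 ± 0.11), and HSP18.2 differed by 0.64 ± 0.11 in the other sense. Of 22 cold and abscisic acid genes, 10 were higher and 8 lower, with KIN1 at 1.40 ± 0.07, LTP3 at 1.39 ± 0.11, RD20 at -1.17 ± 0.05 and the phosphatase HAB1 at -0.82 ± 0.08.

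Genes of specialised metabolism were lower in several families. Of 19 flavonoid genes, 12 were lower and 2 higher. PAL1, the entry enzyme of phenylpropanoid synthesis, had 107, 99.1 and 96.2 FPKM in se-1, against 281, 283 and 285 FPKM in Col-0, a difference of -1.48 ± 0.04 (limma adjusted p = 6.01e-08), whereas the regulator EGL3 differed by 1.13 ± 0.09. UDP-glycosyltransferases were lower in 30 of 43 and higher in 2, with UGT73C1 at -1.28 ± 0.12. Cytochrome P450 genes were lower in 63 of 128 and higher in 24, and glutathione transferases lower in 18 of 39 and higher in 9, or 12 and 12 with equal nuclear sums. GSTU10 differed by -1.48 ± 0.11. Aliphatic glucosinolate genes were split, 4 higher and 6 lower of 13, with the synthesis enzyme CYP79F2 at 9.54, 8.33 and 8.29 FPKM in se-1, against 23.4, 22.9 and 25.3 FPKM in Col-0 (-1.36 ± 0.07). Fragments of CYP79F2 may be shared with its tandem copy. IGMT1, which methylates indole glucosinolates, had 1.34, 1.98 and 2.05 FPKM in se-1, against 15.3, 14.8 and 14.7 FPKM in Col-0 (-2.52 ± 0.11, limma adjusted p = 3.6e-07).

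The 2 triterpene clusters, which make marneral and thalianol in roots, were higher throughout. All 5 genes were called, with a median of 1.62. MRN1, the marneral synthase, had 9.07, 8.45 and 7.99 FPKM in se-1, against 0.15, 0.2 and 0.12 FPKM in Col-0, a difference of 3.04 ± 0.10 (limma adjusted p = 1.05e-07), and CYP705A5 of the thalianol cluster had 10.3, 10.1 and 11.2 FPKM in se-1, against 2.48, 2.51 and 2.49 FPKM in Col-0 (1.72 ± 0.08). Markers of roots and root hairs were higher in 12 of 22 and lower in 4. The number higher was 9 to 11 with any 1 library left out and 9 after quantile normalization, with 4 lower in each. PRP1 and PRP3, cell wall proteins of root and root hair, differed by 1.77 ± 0.12 and 1.34 ± 0.10, while the inner-root genes TIP2;3 and SKOR differed by -0.77 ± 0.07 and -0.48 ± 0.12. The summed FPKM of all 24 root markers overlapped between groups, at 211.2 to 226.4 in se-1 and 212.1 to 214.5 in Col-0. The part of root content in the rise of root-expressed genes such as MRN1 and IRT1 was not tested.

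Against the label of whole seedlings, all 24 root markers and all 43 photosystem genes were above 0 in every library. None of 10 seed maturation genes passed the filter, with summed FPKM of 1.97 to 2.67 in se-1 and 0.92 to 1.24 in Col-0 and LEC1 at 0 throughout. Floral organ genes summed to 3.23 to 4.45 FPKM in se-1 and 2.01 to 2.92 FPKM in Col-0. Stomatal lineage markers summed to 100.7 to 103.4 FPKM in se-1 and 110.6 to 115.3 FPKM in Col-0. FMA, a factor of guard cell identity, had 13.6, 13.6 and 12.8 FPKM in se-1, against 20.97, 19.6 and 21.4 FPKM in Col-0 (-0.60 ± 0.06), while EPF1, a peptide that spaces stomata, differed by 0.42 ± 0.10.

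**Figure D4:**
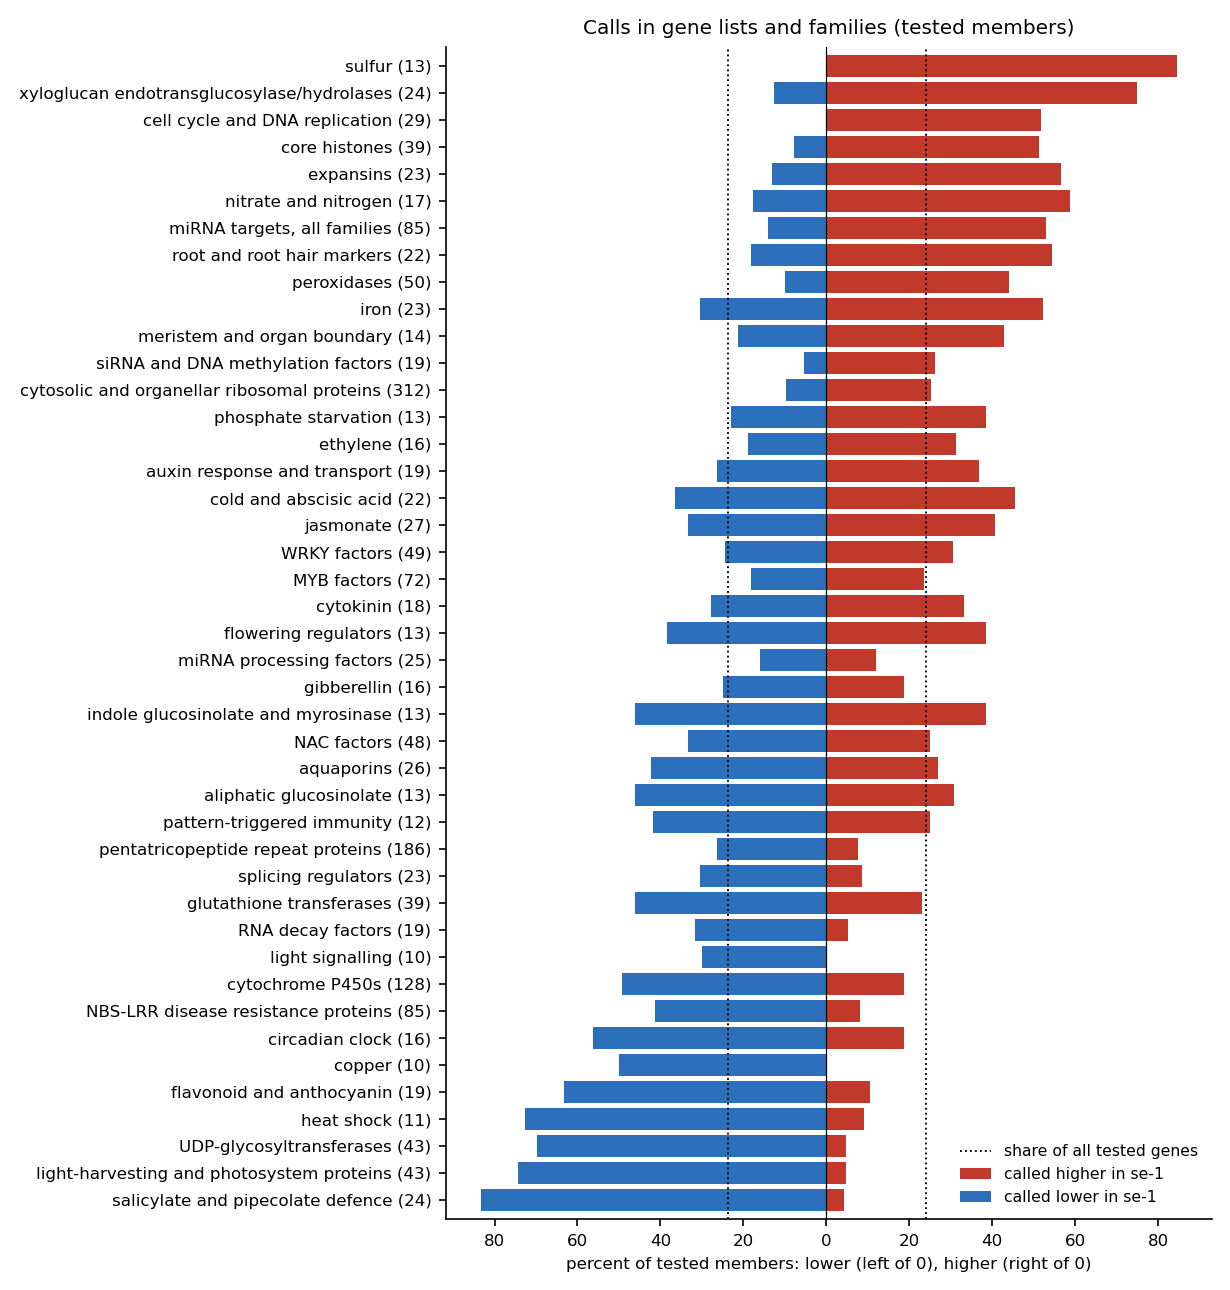
Percent of tested members called lower (blue, left of 0) and higher (red, right of 0) in se-1 for each gene list or family with at least 10 tested members, whose number is in brackets. Dotted lines mark the shares over all tested genes, 23.6% lower and 24.0% higher. Sulfur, XTH, and cell cycle genes lie at the higher end, and salicylate, photosystem and UDP-glycosyltransferase genes at the lower end.

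Beyond these lists, the largest rises among genes with a symbol included several of the cell surface and of nutrient use. AGP30, a root arabinogalactan protein, had 13.3, 12.98 and 14.8 FPKM in se-1, against 1.13, 0.48 and 0.93 FPKM in Col-0 (3.01 ± 0.14, limma adjusted p = 4.75e-07). DSEL, a lipase of seedling establishment, had 19.4, 17.8 and 19.5 FPKM in se-1, against 2.12, 1.83 and 1.88 FPKM in Col-0 (2.76 ± 0.08). BT2, a BTB and TAZ domain protein of nitrogen and sugar responses, had 169, 174 and 158 FPKM in se-1, against 29.1, 27.3 and 27.4 FPKM in Col-0 (2.54 ± 0.05, limma adjusted p = 8.41e-09). The phosphodiesterase GDPD2 had 69.8, 69.9 and 75.9 FPKM in se-1, against 15.1, 17.55 and 15.7 FPKM in Col-0 (2.09 ± 0.06). For all 4, the lowest se-1 library was several times the highest Col-0 library. Among the largest falls, PCR1, a cadmium resistance protein, had 0.25, 0.3 and 0.26 FPKM in se-1, against 11.2, 11.3 and 9.86 FPKM in Col-0 (-3.21 ± 0.10, limma adjusted p = 6.08e-08). PP2-A1, a phloem lectin, had 9.85, 9.63 and 11.9 FPKM in se-1, against 82.9, 83.7 and 86.2 FPKM in Col-0 (-2.90 ± 0.07, limma adjusted p = 2.47e-08). Neither gene's groups overlapped, and PCR1 was below 1 FPKM in every se-1 library.

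**Figure D5:**
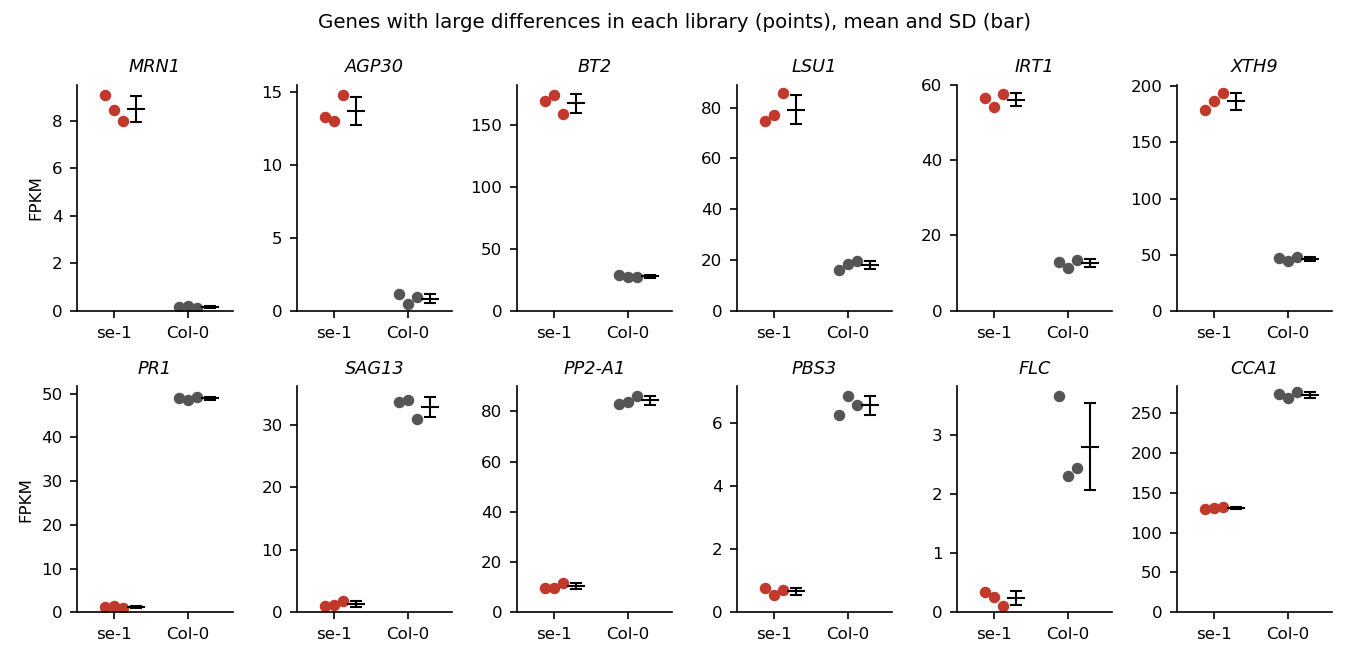
FPKM of 12 genes with large differences in each se-1 (red) and Col-0 (grey) library, with the mean and SD of 3 libraries beside the points; every axis is linear and starts at 0. MRN1, AGP30, BT2, LSU1, IRT1 and XTH9 (upper row) were higher in se-1, and PR1, SAG13, PP2-A1, PBS3, FLC and CCA1 (lower row) were lower.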

How the data were processed

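The study sequenced mRNA of whole seedlings, and 3 se-1 and 3 Col-0 libraries were used here, grouped by the genotype in the labels; the other mutant in the series was used in 1 alternative fit only. Per the labels' protocols, RNA was captured on mRNA beads, fragmented, reverse-transcribed, ligated and amplified by PCR. The deposited values are FPKM per gene with 2 decimals, 1 file per library. The genome build was TAIR10, and STAR 2.7.2b, Trim Galore 0.6.7, Cuffdiff and Cuffnorm are named, per the submitters' processing notes. What each tool did, which annotation and scaling were used and whether reads were counted by strand is not given in the sources used here, so reads of overlapping or antisense genes and of similar copies cannot be told apart. Depth is unknown: whole fragments were not recovered from the FPKM values, so no count model was run, and by the steps between the lowest values 1 fragment was worth 1.38 times as much FPKM in Col-0 replicate 1 as in se-1 replicate 3, which had the smallest step.

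Tests used limma 3.58.1 in R 4.3.3 on log2(FPKM + 1), with moderated variances, an intensity trend and 4 residual degrees of freedom, two-sided, Benjamini-Hochberg adjusted over 19059 genes and called under 0.05. For a single gene, an exact permutation of 3 against 3 libraries cannot go below 0.10. Symbols, lengths, miRNAs and sites came from RefSeq's TAIR10.1 annotation, matched by locus for 32538 of 32823 genes; its coordinates are those printed. Target sites were searched among 427 mature miRNAs, leaving out 3 annotated inside a target gene.

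The 64 lists (703 loci, 680 with the listed symbol in the reference) and 19 families were chosen with earlier results of these data known, and are described by counts and medians without a test; 1 miRNA target is counted but not reported here. Named genes were taken from SE, CYP71, the 12 largest called rises and falls with a symbol and groups that did not overlap, any tested miRNA, TAS or tasiRNA target and short RNA gene, the 2 largest called changes each way in lists with at least 3 calls, and the largest each way in families. On simulated data for se-1 against Col-0 with 200 changed genes among 19059, 36% of changes of 0.25 on the log2 scale were recovered, 84% at 0.5, 96% at 1 and 100% at 2, with 11 false calls. The simulation drew independent normal noise and changed far fewer genes than the 9070 called in the data. The cut-off after adjustment depends on the share of changed genes, so these figures do not carry over to the calls reported. Alternatives were other pseudocounts, filters, scalings and variance settings, all 9 libraries, a replicate block, removal of the length trend and leaving out each library. Python 3.11.15, pandas 2.3.3, numpy 2.4.6 and matplotlib 3.10.9 were used for summaries and figures.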

Additional observations from a re-analysis of the deposited data

How the results depend on the processing

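Across 17 alternatives, the number of genes called lay between 7466 (mean FPKM of at least 5) and 9642 (all 9 libraries), beside 9070. With equal sums over nuclear genes, 2848 genes were called lower in place of 4495, and 6642 higher in place of 4575. The median of all genes moved to 0.11, and the scaled sum includes short RNA genes of very large FPKM, such as U6-1. The number called with at least 1 on the log2 scale was 1052 with a pseudocount of 0.1, 255 with a pseudocount of 5 and 441 with a mean FPKM of at least 5, in place of 696. A larger pseudocount shrinks differences of low genes and the stricter filter tests fewer genes. Leaving out 1 library gave 7549 to 8942 called genes, 3840 to 4412 higher, 3697 to 4530 lower and 673 to 718 with at least 1. Removal of the length trend, chosen after seeing the data, gave 9484 calls. With the replicate number as a block, 8347 genes were called (4233 higher and 4114 lower). Same-numbered libraries did not deviate together (r of -0.11, -0.14 and -0.05). With 3 libraries per genotype that differ in length balance, these values show no sign of pairing by number but cannot exclude it. Of 237 named genes that were called, 205 kept their call and direction under every alternative run, 32 lost the call under at least 1 and 0 reversed. Values of short RNA genes and of genes near 1 FPKM are limited by depth, which is unknown, and a missing call there does not show equal levels.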

Other observations

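A run of CYP71B genes on chromosome 3, neighbours by locus number that encode cytochrome P450 enzymes of mostly unassigned substrates, was looked at after its values were seen. Of 16 genes listed, 12 were tested, and 10 of these were called lower in se-1. CYP71B24 had 1.39, 1.39 and 1.13 FPKM in se-1, against 8.02, 7.99 and 7.68 FPKM in Col-0 (-1.95 ± 0.09, limma adjusted p = 5.71e-07). CYP71B3 differed by -1.18 ± 0.14, CYP71B26 by -1.11 ± 0.07, CYP71B20 by -1.08 ± 0.09 and CYP71B19 by -1.05 ± 0.15. CYP71B22, inside the same run, was the 1 member called higher, with 2.72, 2.21 and 2.44 FPKM in se-1, against 0.92, 0.77 and 0.6 FPKM in Col-0 (0.97 ± 0.13, limma adjusted p = 0.000246), and CYP71B37 was not called. The copies are similar in sequence, so fragments may have been assigned to the wrong one.

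Families of transcription factors beside WRKY showed both directions. MYB factors were higher in 17 (23.6%) and lower in 13 (18.1%) of 72, near or below the shares of all genes, 24.0% and 23.6%. MYB70 had 25.6, 26.4 and 23.4 FPKM in se-1, against 10.5, 11.1 and 10.8 FPKM in Col-0 (1.15 ± 0.06), and MYB47 differed by -1.18 ± 0.09. NAC factors were higher in 12 and lower in 16 of 48, and 15 and 12 with equal nuclear sums. NAC019, a factor of jasmonate and abscisic acid responses, differed by -1.14 ± 0.12. Aquaporins were lower in 11 and higher in 7 of 26, or 5 and 8 with equal nuclear sums. NIP2;1, a root aquaporin of oxygen shortage, had 3.38, 3.57 and 3.49 FPKM in se-1, against 0.83, 0.54 and 1.05 FPKM in Col-0 (1.32 ± 0.13).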
